A study of Caenorhabditis elegans with 36 samples.

Results

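Total RNA of Caenorhabditis elegans larvae at the last larval stage, L4, was compared with total RNA of larvae at the first stage, L1. All input samples of these stages were taken, which were 3 L4 samples and 4 L1 samples of the 36 samples of the series. The other 29 samples were inputs of other stages and immunoprecipitates of AIN-2, a protein of the microRNA silencing complex. The 11 inputs of the Egg, L2 and L3 stages served to estimate the spread and the dye effect and to show stage courses. All 36 samples entered the quantile normalization. Each sample was 1 dye channel of a 2-colour spotted array, and a level is the log2 of its intensity after quantile normalization. A difference is L4 minus L1 on that scale, fitted with the dye as a covariate and given ± its SE, and a gene was called where the adjusted p was under 0.05. A gene counted as above background where its value was over 3 times the noise of the sample. Levels of different genes come from different probes and are not set against each other.

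All animals, L4 and L1 alike, came from the same strain, which carries a single-copy integrated AIN-2::GFP transgene, and no animals without the tag were analysed here. The labels do not name the promoter of the transgene. L4 larvae had been on HB101 bacteria for 42 hours and L1 larvae for 4 hours, both at 20 °C, after hatching in buffer without food. The labels state that over 80% of the animals of a sample were at the named stage, and that every replicate was grown and collected on its own, so the samples are independent cultures. The input RNA was extracted from a portion of the cleared lysate after the anti-GFP antibody had been added and before the beads were.

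Between hatching and L4 a hermaphrodite larva renews its cuticle at every molt, adds a minority of its neurons and no pharyngeal cells, and enlarges its germ line from a few founder cells to a large gonad. In the L4 stage the first germ cells to finish meiosis become sperm, and the gonad then switches to oocytes, which take up yolk made by the gut in the adult. Major sperm proteins drive the crawling of sperm, collagens build the cuticle, and small peptides carry signals between neurons.

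Of the 16378 named genes on the array, 14916 had enough values to be tested, together with 4860 probes without a gene name. limma called 926 genes and probes higher in L4, 4.68% of the 19776 tested, and 414 lower, 2.09%. Among the named genes, 835 were higher (5.6%) and 334 lower (2.24%), together 7.84%. These shares are the background for every count of called genes in a list below. The called differences reached further upward than downward, since 302 genes and probes were over 16-fold higher in L4 and 12 were over 16-fold lower. However, 162 of the 926 higher calls had no L1 sample above background, and 24 of the 414 lower calls had no L4 sample above background. The size of such differences is uncertain. The median difference over all tested was -0.12 on the log2 scale. Of the 11380 named genes with a value in all 7 samples, the 3 L4 values all lay above the 4 L1 values in 11.8% and all below them in 9.88%. With the unnamed probes included, these shares were 10.4% and 9.89%. In whole-animal RNA, a lower level can mean fewer cells of a type relative to the animal or less RNA per cell, and these cannot be told apart.

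**Figure D1:**
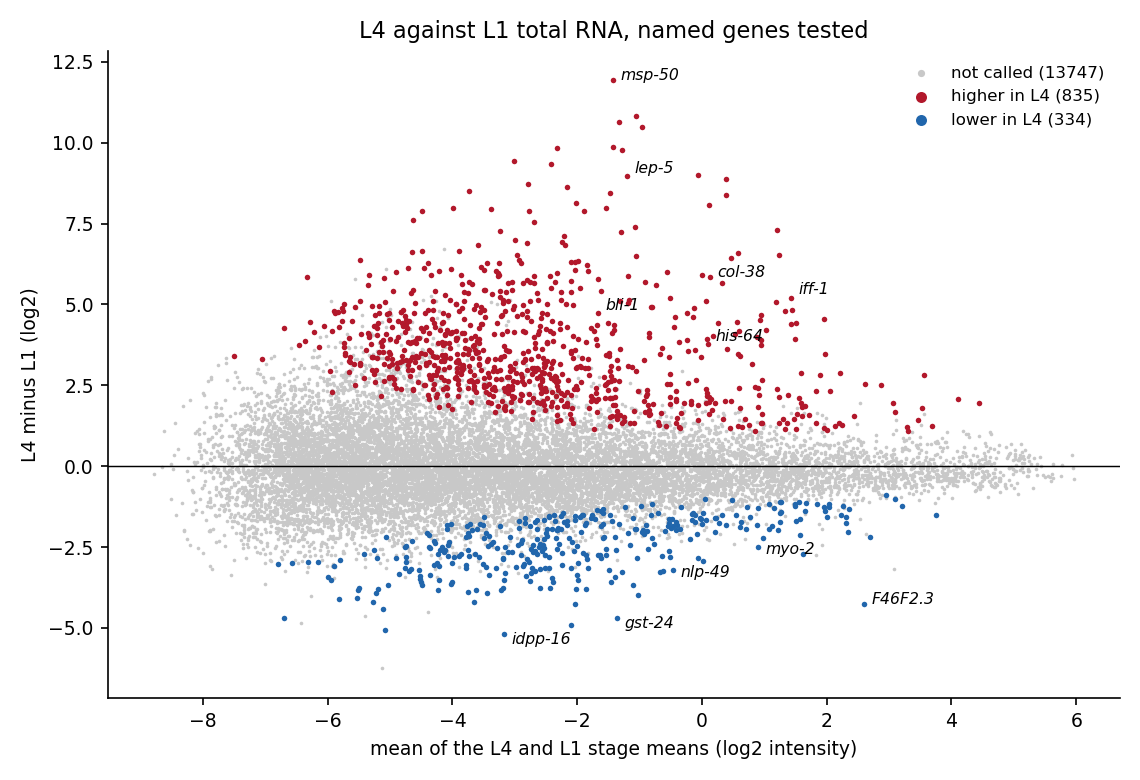
Difference between L4 and L1 (L4 minus L1, log2, vertical axis) against the mean of both stage means (log2 intensity, horizontal axis) for the 14916 named genes tested; each point is a gene. The 835 genes called higher in L4 extend to 11.93 and the 334 called lower extend to about -5, with idpp-16 at -5.19.

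L4 replicate 10 stood apart from the other L4 samples, and this touches every result. Over 9805 named genes with a value in all 18 inputs, its levels correlated at r = 0.843 and 0.871 with L4 replicates 1 and 3, which correlated at 0.883 with each other. It correlated at 0.854 to 0.908 with the 4 L1 samples, whereas L4 replicates 1 and 3 did so at 0.749 to 0.801. Its closest sample was L3 replicate 5, at 0.946, which was labelled with Cy5 and is the only L3 input whose title spells the input as Tot. Among the L1 samples it correlated at 0.854 with replicate 2, spelled tot, and at 0.894 to 0.908 with the others, spelled Tot. L4 replicate 10 was the only L4 input labelled with Cy3 and the only one whose title spells the input as Tot, so the sample, its dye and its title spelling cannot be told apart. Without it, 1157 genes and probes were higher in L4 (6.5% of 17797) and 959 lower (5.39%). Among named genes these were 7.7% and 5.34%. Of the calls made with all 7 samples, 834 higher and 369 lower were made again without it and 0 changed direction. Among the L4 and L1 samples spelled Tot alone, 77 were higher and 4 lower, and among those spelled tot alone, 350 were higher and 54 lower. Each of these comparisons has 1 sample on one side, L4 replicate 10 for Tot and L1 replicate 2 for tot, which is assumed to vary like the other groups.

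The position of L4 replicate 10 between the L1 mean (0) and the mean of the other L4 samples (1) differed between gene groups. It was computed for named genes called without this sample and over 2 apart on the log2 scale. Its median was 0.493 over 900 higher genes and 0.379 over 459 lower genes. The genes were chosen because the other L4 samples differed from L1, and those same samples set the ends of the scale. A sample left out of the choice can fall below 1 for that reason alone, and its dye differed from that of the other L4 samples. A median below 1 therefore cannot show that this sample was at an intermediate state. Body shape collagens, at 1.06 (8 genes), and molting genes, at 0.955 (5 genes), lay at the level of the other L4 samples. Sperm protein families (0.434, 27 genes), oocyte genes (0.399, 17 genes) and yolk protein genes (0.328, 5 genes) lay nearer to L1. By their medians, major sperm protein genes (0.737, 11 genes), meiotic genes (0.609, 14 genes) and germ line genes (0.62, 8 genes) lay nearer to the other L4 samples. The quartiles of meiotic genes (0.34 and 0.758) and germ line genes (0.336 and 0.668) lay on both sides of the midpoint. Genes are not independent replicates, and these positions describe 1 sample.

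**Figure D2:**
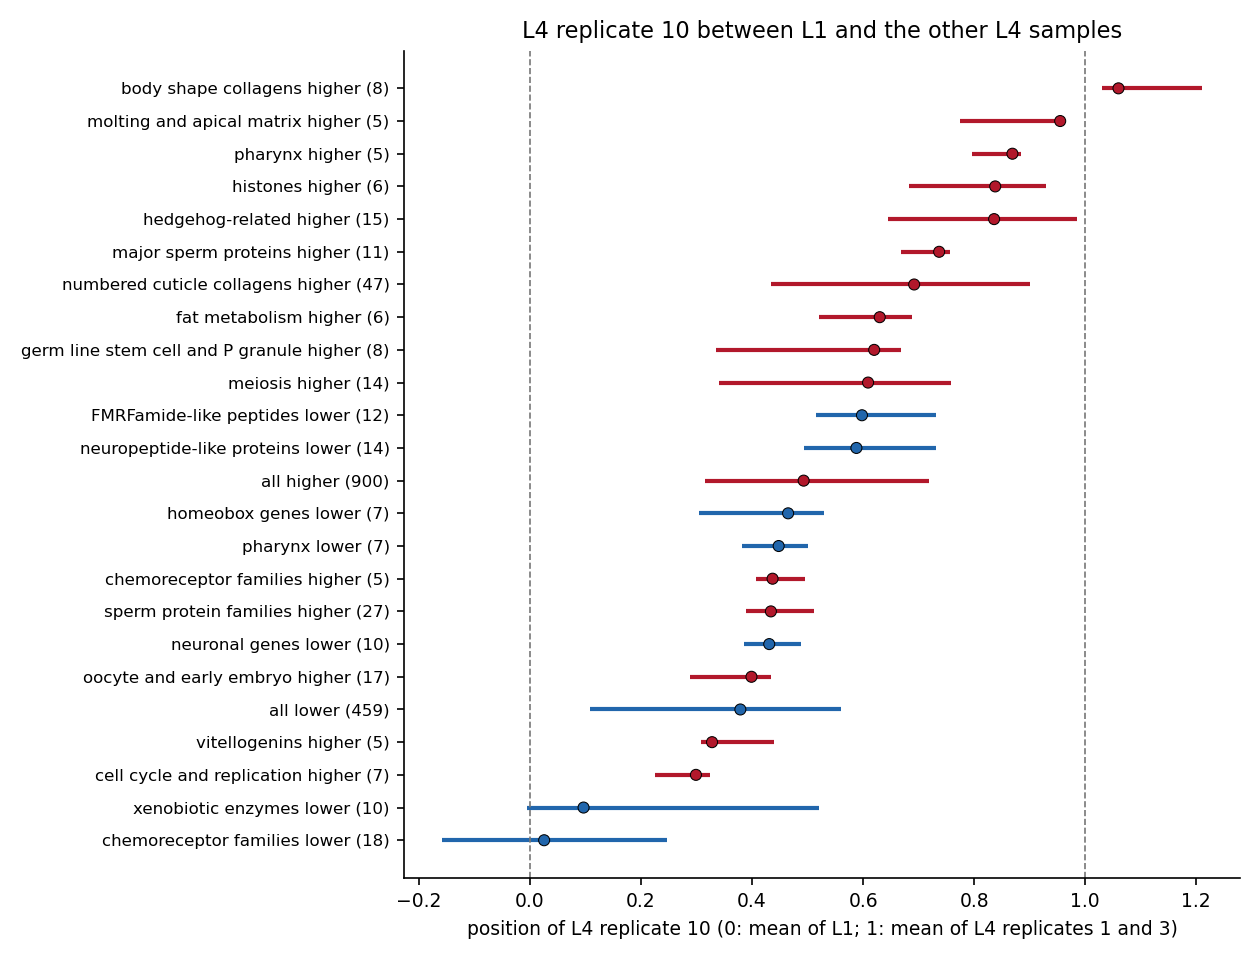
Position of L4 replicate 10 on a scale from the mean of the L1 samples (0) to the mean of L4 replicates 1 and 3 (1), for genes called higher (red) or lower (blue) in L4 when this sample is left out; points are medians over the genes of a list, bars run from the lower to the upper quartile, and the number of genes is in brackets. Body shape collagens lie at 1.06 and yolk protein genes at 0.328. The choice of genes alone can place this sample below 1.

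Markers were read first to check the stage labels. The major sperm protein list was higher in every L4 sample than in every L1 sample, as given below. The adult collagen gene col-19 had levels of -1.01, -0.46 and -4.86 in L4 replicates 1, 3 and 10, against -6.31 and -5.94 in L1 replicates 2 and 11 and no positive value in the other L1 samples. It was not above background in any L1 sample, and it did not pass the test (adjusted p = 0.16). It passed without L4 replicate 10 (adjusted p = 0.00798), and with all 7 samples after a floor on low values or an offset of 0.1 before log2 (adjusted p = 0.00631 with the offset). Among 29 tested genes of embryonic lineage specification, 0 were called by limma (4 at an unadjusted p under 0.05), and their median difference was -0.25. Without L4 replicate 10, 1 of them was higher and 1 lower. The endoderm regulator end-3 had levels of 0.58, 1.26 and 1.04 in L4 and 1.2, 0.78, 0.22 and 1.67 in L1. Oocyte and yolk protein genes had also been set as markers of adults or embryos in a sample, and many of them were higher in L4. These were 14 of 33 oocyte and early embryo genes, with 1 lower, and 5 of 6 yolk protein genes, as given below. Whether older animals were present in the L4 samples was not tested. Of male markers, her-1 had a difference of -0.34 (adjusted p = 0.798), and try-5 and mab-3 had 0.24 (adjusted p = 0.955) and -0.12 (adjusted p = 0.967).

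Sperm genes gave the highest median difference of the 44 lists. Of 15 major sperm protein genes tested, 12 were higher in L4 and 0 lower, with a median difference of 8.87. Their probes may read each other's transcripts, because these genes are near-identical copies, so the 12 are not separate observations. In this and the following sentences L4 values are given for replicates 1, 3 and 10 and L1 values for replicates 2, 5, 10 and 11, with a missing value left out and named. msp-50 had levels of 6.24, 4.83 and 2.25 in L4, against -5.38, -8.0, -9.12 and -6.67 in L1. No L1 value of msp-50 was above background, and it was at least 843-fold higher in L4 (adjusted p = 1.98e-05). msp-76 had levels of 4.67, 6.08 and 3.50 in L4 and -5.11, -3.85, -4.06 and -2.84 in L1, a difference of 8.87 ± 0.99 (SE, adjusted p = 2.38e-05). In both genes the lowest L4 value was that of replicate 10, and it still lay far above every L1 value. The 3 that were not called, chosen after their values were seen, were msp-36 (-0.99, adjusted p = 0.519), msp-45 (2.00, adjusted p = 0.244) and msp-81 (1.42, adjusted p = 0.55). msp-45 was called higher with its brightest probe alone (5.59, adjusted p = 4.6e-05), and also after an offset of 0.1 and with a floor on low values.

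Other sperm protein families were higher as well. Of 34 genes of sperm protein families, 25 were higher and 0 lower, with a median difference of 4.32, or 4.2 with dim genes at their bound. The number called was 18 to 28 with any 1 sample left out. spch-3, one of the sperm chromatin proteins that pack the sperm nucleus, had levels of 3.99, 3.28 and -1.14 in L4, against -6.6, -7.39 and -5.11 in L1, where replicate 10 had no positive value. It was at least 160.0-fold higher in L4 (adjusted p = 0.00128). ssq-1, a sperm-specific family member, had levels of 2.57, 3.30 and 0.40 in L4 and -0.29, -0.48, -0.77 and -0.09 in L1, a difference of 2.46 ± 0.58 (adjusted p = 0.0129). Every L4 value of ssq-1 lay above every L1 value, as in 11.8% of the named genes with all 7 values. However, L4 replicate 10 was nearer to L1, and the call was lost without L4 replicate 1 or 3 or L1 replicate 10 (adjusted p up to 0.0944). msd-4 and nspd-5, of MSP-domain and nematode-specific peptide families, were at least 59.5-fold (adjusted p = 0.00133) and at least 55.4-fold (adjusted p = 8.25e-05) higher in L4.

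Of 27 tested genes needed for sperm formation and function, 3 were higher and 0 lower, with a median of 1.45, or 1.13 with dim genes at their bound. This was 11.1% called, against 7.84% of all named genes (5.6% higher), and 1 to 5 were called with any 1 sample left out. spe-18, which acts in building the organelles of the spermatid, had levels of 0.64, 1.62 and -2.40 in L4, against -6.91, -6.44, -6.95 and -5.55 in L1, and was at least 37.7-fold higher in L4 (adjusted p = 0.000122). The sperm phosphatase gene gsp-3 rose by 2.76 ± 0.79 (adjusted p = 0.0427), a call lost on leaving out any 1 sample but L4 replicate 10 (adjusted p up to 0.172). The PP1 phosphatases used throughout the body, gsp-1 and gsp-2, gave -0.40 (adjusted p = 0.43) and -0.10 (adjusted p = 0.899). Several known spermatogenesis genes did not pass: the sperm surface gene spe-9 gave 2.83 (adjusted p = 0.128), the membrane fusion gene fer-1 gave 2.06 (adjusted p = 0.318), and spe-11, which sperm bring to the egg, gave 2.53 (adjusted p = 0.2). In the sex determination list 1 of 16 genes was called, or 6.25%, against 7.84% of all named genes. It was fog-2, which permits sperm in hermaphrodites, higher by 2.77 ± 0.74 (adjusted p = 0.0295). The call was lost on leaving out any 1 sample but replicate 10 of L4 or of L1 (adjusted p up to 0.15).

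**Figure D3:**
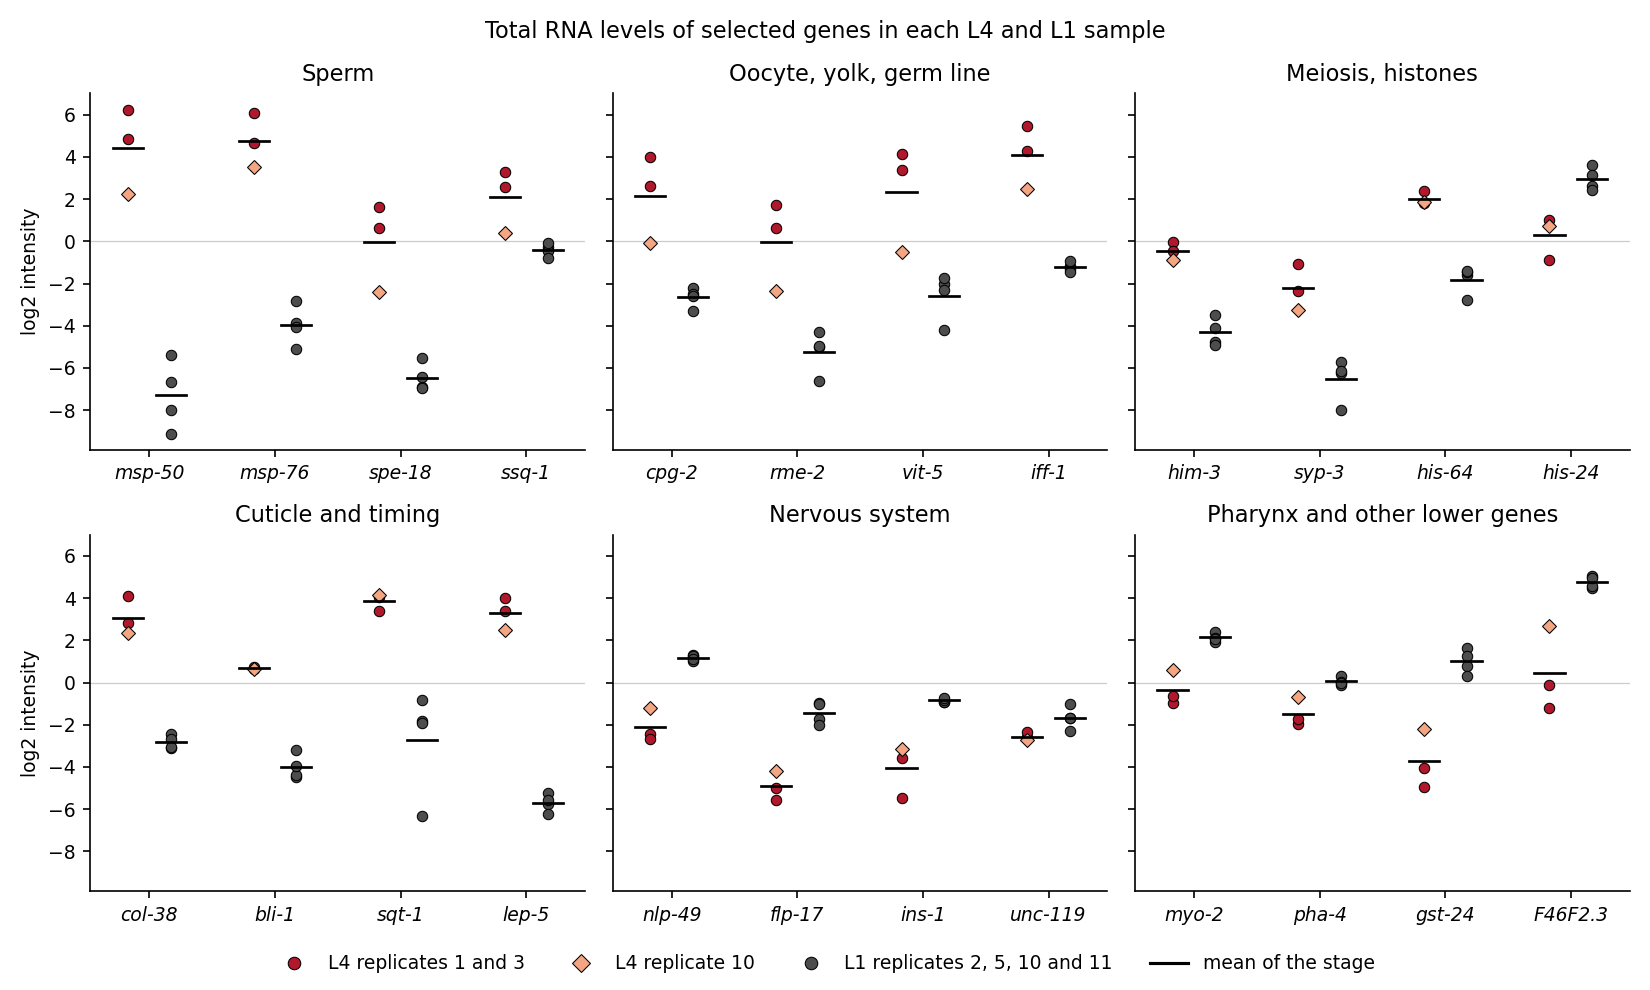
Level (log2 intensity, vertical axis) of 24 genes in each L4 sample (left of each pair; red circles replicates 1 and 3, light diamond replicate 10) and each L1 sample (right, grey); the black line is the mean of the stage. The genes were chosen with earlier results known, and all but unc-119 were called, so that the groups do not overlap follows largely from the choice. Over all named genes with all 7 values, L4 lay wholly above L1 in 11.8% and wholly below in 9.88%. The diamond lies nearer to L1 than the red circles for ssq-1, rme-2 and vit-5 but with them for bli-1, sqt-1 and his-64.

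Oocyte and eggshell genes were also higher in L4 in part. Of 33 tested genes of the oocyte and early embryo, 14 were higher and 1 lower, with a median of 2.54, or 1.99 with dim genes at their bound. With any 1 sample left out, 12 to 17 were higher. rme-2, the receptor that takes yolk into the oocyte, had levels of 1.70, 0.63 and -2.37 in L4, against -6.6, -4.32, -5.0 and -4.98 in L1, a difference of 5.13 ± 0.77 (adjusted p = 0.000424). cpg-2, a chondroitin proteoglycan of the eggshell, had levels of 3.98, 2.64 and -0.10 in L4 and -2.19, -2.49, -2.57 and -3.31 in L1, a difference of 4.72 ± 0.61 (adjusted p = 9.13e-05). Every L4 value of both genes lay above every L1 value, with replicate 10 the lowest of the L4 samples. Such a separation was found in 11.8% of the named genes with all 7 values. The RNA-binding proteins of growing oocytes puf-5 and spn-4 rose by 3.43 ± 0.67 (adjusted p = 0.00347) and 4.35 ± 0.67 (adjusted p = 0.000503).

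Other maternal factors of the same list did not pass the test. The oocyte maturation genes oma-1 and oma-2 gave 0.74 (adjusted p = 0.27) and -0.23 (adjusted p = 0.651). mex-5 and pos-1, which pattern the early embryo, gave 0.12 (adjusted p = 0.84) and -0.12 (adjusted p = 0.892). cav-1, a caveolin of the germ line and nervous system, was the 1 member that fell, with levels of -3.73, -6.08 and -3.66 in L4, against -2.77, -0.31, -0.38 and -1.12 in L1. Its difference was -3.38 ± 0.75 (adjusted p = 0.0089), and the call was lost without L4 replicate 3 (adjusted p = 0.0671).

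Yolk protein genes, known chiefly from the adult gut, were higher in L4. Several are near-identical copies, and their probes may read each other's transcripts. Of the 6 vitellogenin genes, 5 were higher, with a median of 4.69, or 3.87 with dim genes at their bound. vit-5 had levels of 3.37, 4.16 and -0.50 in L4 and -4.22, -2.04, -2.32 and -1.72 in L1, a difference of 4.90 ± 0.92 (adjusted p = 0.00276). vit-6 had levels of 3.18, 3.08 and -2.41 in L4 and -5.69, -3.98, -3.43 and -2.59 in L1, a difference of 5.11 ± 1.06 (adjusted p = 0.00546). Replicate 10 stood close to the highest L1 value in vit-6, while replicates 1 and 3 were far above it. Without L4 replicate 10, the vit-6 difference was 7.28 (adjusted p = 4.1e-05). vit-2 was not above background in L1 and was at least 40.5-fold higher in L4 (adjusted p = 0.0134). The remaining gene, vit-4, gave 0.48 ± 0.68 (adjusted p = 0.752). With L4 replicate 1 or 3 left out, only 3 of the 6 were called, since vit-2 and vit-3 were lost (adjusted p up to 0.0956). vit-3 was also lost without L1 replicate 10.

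Genes of the germ line itself were higher in L4 in part. Of 38 tested genes of germ line stem cells and germ granules, 8 were higher and 0 lower, or 21.1% called, against 7.84% of all named genes. The median was 0.99, and 5 were called without L4 replicate 3. cey-2, a Y-box RNA-binding protein, had levels of 2.14, 3.77 and 0.47 in L4, against -3.48, -2.74, -3.51 and -2.81 in L1, a difference of 5.19 ± 0.64 (adjusted p = 5.68e-05). wago-1, an Argonaute of germ granules, rose by 5.0 ± 0.74 (adjusted p = 0.000348). pgl-1 and glh-1, core proteins of germ granules, gave 1.56 (adjusted p = 0.0626) and 0.85 (adjusted p = 0.305). The translation factor iff-1, an eIF5A of the germ line, had levels of 5.46, 4.28 and 2.48 in L4 and -1.18, -1.29, -1.44 and -0.94 in L1, a difference of 5.21 ± 0.51 (adjusted p = 6.84e-06). It was the only 1 of 34 translation factors that was called, and its stage means were 1.60, -1.22, 1.45, 2.51 and 4.07 in Egg, L1, L2, L3 and L4.

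Meiotic genes were also higher in part. Of 47 tested, 9 were higher and 0 lower, or 19.1% called, against 7.84% of all named genes. The median was 1.14, and 14 were higher without L4 replicate 10. him-3, an axis protein of meiotic chromosomes, had levels of -0.02, -0.48 and -0.90 in L4, against -4.10, -4.77, -4.91 and -3.48 in L1, a difference of 3.86 ± 0.50 (adjusted p = 9.7e-05). The axis gene htp-1 rose by 3.57 ± 0.50 (adjusted p = 0.000199), and syp-3 of the synaptonemal complex rose by 4.11 ± 0.77 (adjusted p = 0.003). L4 replicate 10 was close to the other L4 samples in him-3. spo-11, which makes meiotic breaks, gave 2.44 (adjusted p = 0.14), and rad-51, which repairs breaks in all dividing cells, gave 0.14 (adjusted p = 0.833).

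Of 85 genes of the cell cycle and replication, 6 were higher and 1 lower (median 0.72), or 8.24% called, against 7.84% of all named genes, and without L4 replicate 10 these were 12 and 3. Without L4 replicate 1 or 3 or L1 replicate 5 or 10, 3 were higher. The kinetochore gene hcp-2 had levels of 1.29, 0.80 and -1.35 in L4, against -1.97, -1.48, -2.18 and -2.59 in L1, a difference of 2.17 ± 0.41 (adjusted p = 0.00257). The replication factors pcn-1 and mcm-2 gave -0.37 (adjusted p = 0.435) and -0.05 (adjusted p = 0.953). cyd-1, the cyclin that starts postembryonic divisions, had levels of -0.26, -0.47 and 1.03 in L4, against 1.18, 1.45, 1.43 and 1.38 in L1. It was lower by the test (-1.26 ± 0.37, adjusted p = 0.0472), but leaving out any 1 sample except L4 replicate 10 lost the call (adjusted p up to 0.209).

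Among 33 histone genes 7 were higher and 1 lower, or 24.2% called, against 7.84% of all named genes. The median of the 33 was 0.12. his-64, a core histone gene, had levels of 1.80, 2.39 and 1.86 in L4, against -2.77, -1.61, -1.47 and -1.39 in L1, a difference of 3.78 ± 0.40 (adjusted p = 1.21e-05). Here L4 replicate 10 matched the other L4 samples. his-24, which encodes a linker histone of the soma and germ line, ran the other way, with levels of -0.90, 1.02 and 0.74 in L4 and 2.61, 3.60, 3.16 and 2.44 in L1 (-2.71 ± 0.61, adjusted p = 0.0101), and lost its call without L4 replicate 1 (adjusted p = 0.0768). hil-4, another linker histone gene, rose by 3.83 ± 0.39 (adjusted p = 8.25e-06). Many core histone genes are near-identical copies, and their probes may read each other's transcripts.

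Numbered cuticle collagens gave the most higher calls of the 44 lists. Of 130 numbered collagen genes tested, 49 were higher in L4 and 0 lower, with a median of 1.67, or 1.52 with dim genes at their bound, and 36 to 50 were higher with any 1 sample left out. col-38 had levels of 2.80, 4.09 and 2.34 in L4, against -3.12, -2.44, -2.68 and -3.07 in L1, a difference of 5.84 ± 0.39 (adjusted p = 9.72e-08). Its stage means were -3.53, -2.83, -0.98, -0.43 and 3.08 in Egg, L1, L2, L3 and L4. col-146 had levels of 3.05, 2.1 and 2.36 in L4 and -5.69, -4.29, -4.08 and -8.16 in L1, a difference of 7.98 ± 0.76 (adjusted p = 6.01e-06). For both, the L4 samples lay together, with replicate 10 among them. Others rose in replicates 1 and 3 but much less in replicate 10: col-129 had levels of 4.64, 4.09 and -0.38 in L4, against -1.66, -2.28, -1.87 and -0.77 in L1 (4.45 ± 1.03, adjusted p = 0.0117), and lost its call without L4 replicate 1 or 3 (adjusted p up to 0.0885). col-106 and col-60 were above background in no L1 sample and at least 85.2-fold (adjusted p = 0.0215) and at least 58.8-fold (adjusted p = 0.011) higher in L4. The call of col-106 was lost without L4 replicate 1 or 3 (adjusted p up to 0.0916), and that of col-60 without L4 replicate 3 or L1 replicate 10 (adjusted p up to 0.101). Not all collagens differed: col-63 gave 0.03 ± 0.32 (adjusted p = 0.968) and col-144 gave -1.09 ± 0.72 (adjusted p = 0.439).

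Collagens whose mutants change body shape or blister the cuticle were higher in L4, and L4 replicate 10 was as high as the others. Of 18 tested, 12 were higher and 0 lower, with a median of 4.08, and 8 were higher and 1 lower without L4 replicate 10. bli-1, a strut collagen of the adult cuticle, had levels of 0.63, 0.75 and 0.66 in L4, against -4.47, -4.36, -3.97 and -3.19 in L1, a difference of 4.72 ± 0.52 (adjusted p = 1.98e-05). Its stage means of -4.82, -4.0, -5.18, -3.99 and 0.68 in Egg, L1, L2, L3 and L4 were raised in L4 alone. bli-2, the other blister collagen of the struts, was above background in no L1 sample and at least 34.5-fold higher in L4 (adjusted p = 9.13e-05). sqt-1 had levels of 3.40, 4.05 and 4.14 in L4 and -6.31, -1.80, -1.91 and -0.84 in L1, a difference of 6.6 ± 0.99 (adjusted p = 0.000415). In contrast to bli-1 its stage means were already 3.74 in L2 and 3.91 in L3. sqt-3 ranged widely within L1, with levels of 2.43, 4.48 and 4.85 in L4, against -4.35, -0.75, 2.14 and -1.17 in L1. Its difference of 4.82 ± 1.17 (adjusted p = 0.016) lost the call without L4 replicate 3 (adjusted p = 0.0658) or L4 replicate 10 (adjusted p = 0.0788). rol-6 gave 0.48 ± 0.57 (adjusted p = 0.701).

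Of 20 tested genes of collagen processing, 3 were higher and 0 lower, or 15% called, against 7.84% of all named genes (5.6% higher). The cyclophilin gene cyn-5 had levels of 3.73, 4.03 and 4.72 in L4, against 2.46, 2.59, 2.77 and 3.30 in L1, a difference of 1.43 ± 0.28 (adjusted p = 0.00365). The FK506-binding protein gene fkb-3 rose by 2.63 ± 0.45 (adjusted p = 0.00111). dpy-18, a prolyl hydroxylase subunit, and bli-3, the oxidase that cross-links the cuticle, gave 0.43 (adjusted p = 0.739) and 0.32 (adjusted p = 0.746).

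Of 45 tested genes of the molt and of the apical matrix under the cuticle, 8 were higher and 0 lower, with a median of 0.47. The share called was 17.8%, against 7.84% of all named genes. With any 1 sample left out 4 to 7 were higher, 4 without L1 replicate 5. lpr-3, a lipocalin of the apical matrix, had levels of 0.34, 0.70 and 2.12 in L4, against -3.19, -2.98, -1.64 and -1.85 in L1, a difference of 3.47 ± 0.48 (adjusted p = 0.000177). Its stage means were 2.3, -2.41, 3.43, 2.93 and 1.06 in Egg, L1, L2, L3 and L4, so its L1 mean was the lowest of the 5. acn-1, an enzyme-like protein needed for molting, rose by 4.15 ± 0.54 (adjusted p = 0.000105). The molting gene mlt-10 gave 1.22 (adjusted p = 0.0957), and the molting protease gene nas-37 gave 0.40 (adjusted p = 0.643). noah-2 differed widely among the L4 samples, at -2.97, -0.06 and 1.79, against -4.70, -2.75, -2.15 and -1.90 in L1 (adjusted p = 0.296).

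Hedgehog-related genes, which encode secreted proteins of epidermal and other apical surfaces, were called in 28.3% of cases, against 7.84% of all named genes. Of 53 tested, 15 were higher and 0 lower, with a median of 1.48, or 1.33 with dim genes at their bound, and 12 to 16 were higher with any 1 sample left out. grl-7 had levels of 2.25, 2.3 and 1.40 in L4, against -5.11, -3.82, -1.95 and -4.37 in L1, a difference of 5.68 ± 0.55 (adjusted p = 6.01e-06). wrt-6 had levels of -0.58, -0.12 and -0.67 in L4 and -6.44, -5.22 and -8.16 in L1 replicates 5, 10 and 11, a difference of 6.15 ± 0.57 (adjusted p = 6.01e-06), with 1 of the L1 values above background. The stage means of grl-7 were 1.27, -3.81, 1.57, 1.87 and 1.99 in Egg, L1, L2, L3 and L4, and those of wrt-6 were -2.44, -6.61, -4.75, -1.98 and -0.46. Of 27 patched-related genes, whose products resemble the hedgehog receptor, 5 were higher, or 18.5% called, against 7.84% of all named genes. The median of the 27 was 0.01, and 3 were higher without L4 replicate 1. Among the 5 higher genes, ptr-2 rose by 3.08 ± 0.49 (adjusted p = 0.000689).

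Heterochronic genes, which set the order of stage-specific cell fates, gave 1 higher and 1 lower of 17 tested. This was 11.8% called, against 7.84% of all named genes. lep-5, a long non-coding RNA that acts in the timing of maturation, had levels of 4.01, 3.37 and 2.49 in L4, against -5.23, -5.74, -6.25 and -5.55 in L1, a difference of 8.96 ± 0.52 (adjusted p = 2.35e-08). Its stage means were -3.90, -5.70, 2.36, 3.47 and 3.29 in Egg, L1, L2, L3 and L4, so L2 and L3 were near the L4 level. hbl-1, a transcription factor of early larval fates, had levels of -1.51, -2.09 and -1.94 in L4 and -0.50, -0.29, -0.66 and -1.06 in L1, a difference of -1.26 ± 0.36 (adjusted p = 0.042). Every L4 value of hbl-1 lay below every L1 value, as in 9.88% of the named genes with all 7 values. Yet leaving out any 1 sample except L1 replicate 11 lost the call (adjusted p up to 0.155). lin-29, which triggers adult epidermal fates, gave -0.05 (adjusted p = 0.959), and lin-42, a period relative, gave 0.53 (adjusted p = 0.595).

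**Figure D4:**
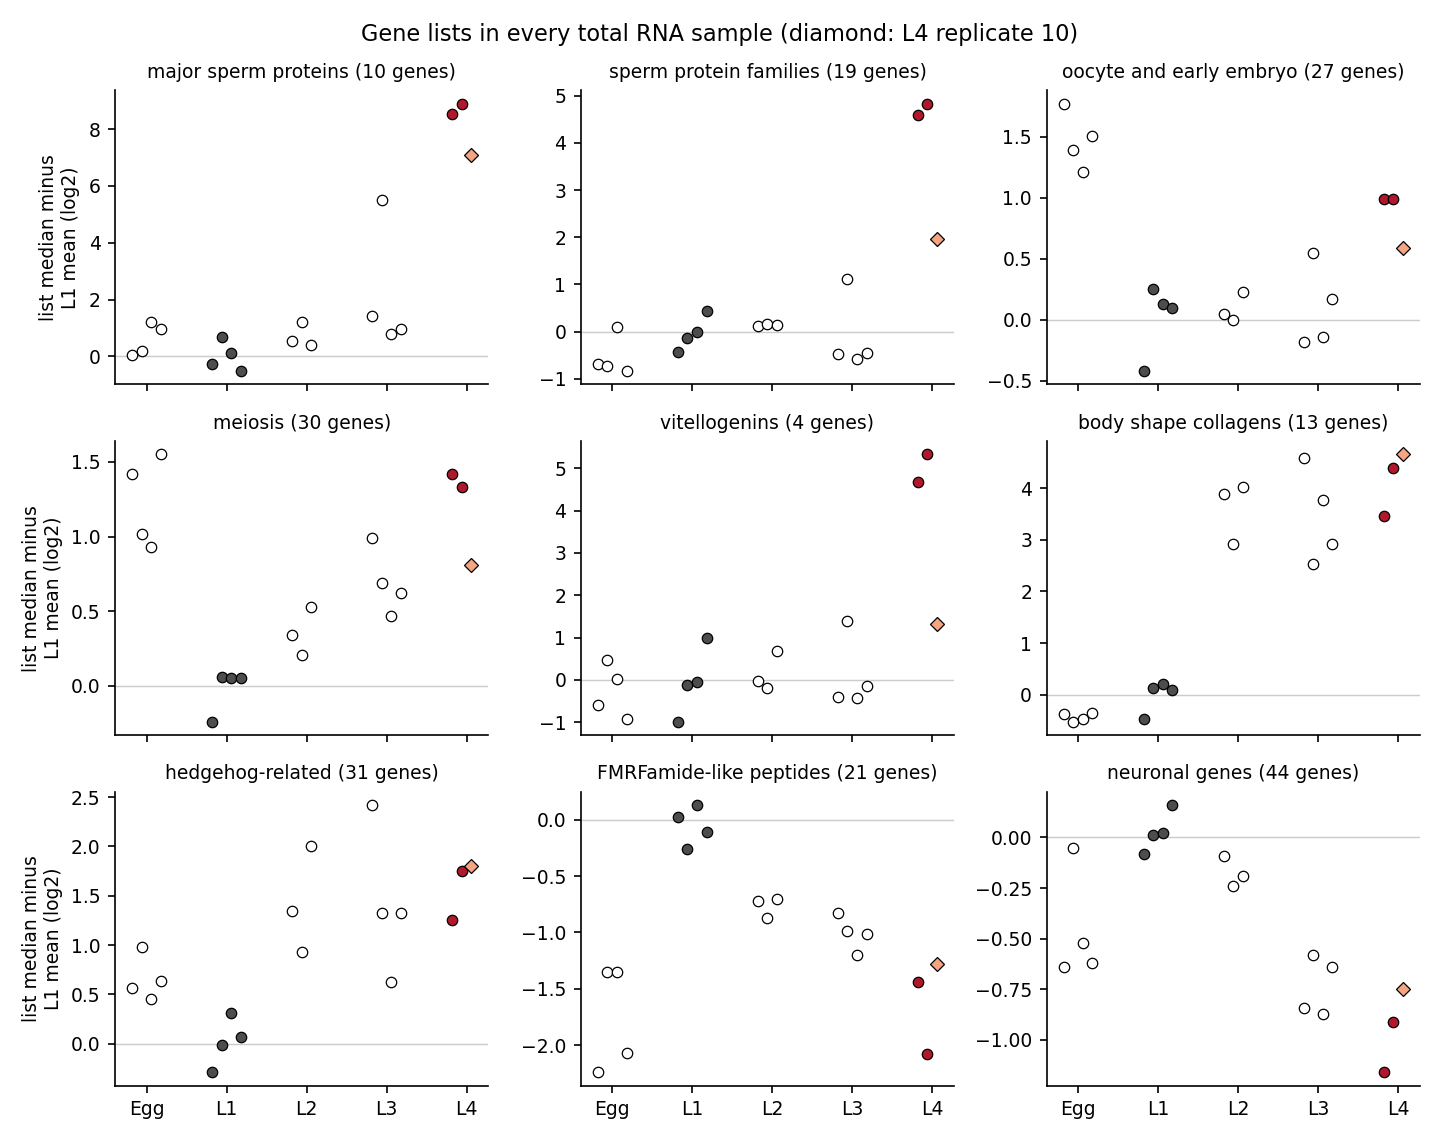
Median over the genes of a list of the level minus the gene's L1 mean (log2, vertical axis) in each of the 18 total RNA samples at the 5 stages, for genes with a value in all 18; grey L1, red L4, open other stages, diamond L4 replicate 10. Major sperm protein genes lie at 8.55, 8.89 and 7.1 in L4 and at 5.49 in L3 replicate 2, while FMRFamide-like peptide genes lie between -2.08 and -1.28 in L4 and between -0.26 and 0.13 in L1.

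The stage courses in the plot of gene lists by sample placed L4 beside the stages between. Major sperm protein genes with a value in all 18 samples (10 genes) lay 8.55, 8.89 and 7.1 above their L1 means in L4 replicates 1, 3 and 10. In L3 they lay at 1.41, 5.49, 0.78 and 0.97, so L3 replicate 2 was far above the other L3 samples. Yolk protein genes (4 genes) lay at 4.69, 5.33 and 1.33 in L4, against 1.40 in L3 replicate 2 and below 0 in the other L3 samples. Meiotic genes (30 genes) were high in eggs as well, at 0.93 to 1.55, against 0.81 to 1.42 in L4. Body shape collagens (13 genes) lay at 3.46 to 4.65 in L4, 2.92 to 4.03 in L2 and 2.53 to 4.58 in L3, and so differed mainly between L1 and all later larvae.

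FMRFamide-like peptide genes had the highest share of lower calls of the 44 lists. Of 23 FMRFamide-like peptide genes, which encode short peptides released by neurons, 13 were lower and 0 higher, with a median of -1.72. The number called was 6 to 14 with any 1 sample left out, lowest without L4 replicate 3 and also reduced by over 1.5 times without L1 replicate 10. flp-17 had levels of -5.57, -4.99 and -4.20 in L4, against -0.95, -1.74, -1.04 and -1.99 in L1, a difference of -3.51 ± 0.64 (adjusted p = 0.00293). Its stage means were -7.93, -1.43, -2.73, -4.18 and -4.92 in Egg, L1, L2, L3 and L4. flp-3 had levels of -5.01, -4.83 and -3.37 in L4 and -0.58, -1.83, -1.51 and -1.45 in L1 (-3.08 ± 0.64, adjusted p = 0.00587). In both genes every L4 value lay below every L1 value, as in 9.88% of the named genes with all 7 values. L4 replicate 10 was the highest of the L4 samples in both.

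Neuropeptide-like protein genes moved both ways: of 59 tested, 13 were lower and 4 higher, with a median of -0.58, and 8 were lower without L4 replicate 1 or 3. nlp-49 had levels of -2.42, -2.70 and -1.23 in L4, against 1.29, 1.02, 1.25 and 1.13 in L1, a difference of -3.22 ± 0.39 (adjusted p = 4.19e-05). nlp-3 had levels of -3.15, -4.54 and -3.37 in L4 and -0.25, -0.93, -0.31 and -0.60 in L1 (-3.14 ± 0.48, adjusted p = 0.000474). The members that rose included nlp-30 (2.63 ± 0.45, adjusted p = 0.00117) and nlp-33 (2.66 ± 0.60, adjusted p = 0.0101), which belong to a family of antimicrobial peptides of the epidermis. nlp-33 had levels of 3.36, 2.85 and 0.78 in L4, against -0.50, 0.07, -0.38 and -0.83 in L1, and its call was lost without L4 replicate 1 or 3 (adjusted p up to 0.0709).

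Of 23 insulin-like peptide genes, 4 were lower and 1 higher, or 21.7% called, against 7.84% of all named genes. The median was -0.84. With any 1 sample left out 2 to 6 were lower, 2 without L4 replicate 1 or L1 replicate 5, 10 or 11. ins-1 had levels of -5.45, -3.59 and -3.14 in L4, against -0.94, -0.90, -0.82 and -0.72 in L1, a difference of -3.16 ± 0.64 (adjusted p = 0.00488). daf-28, an insulin of sensory neurons that promotes reproductive growth, fell by 2.73 on the log2 scale (SE 0.58, adjusted p = 0.00682). ins-7, an insulin made in the gut, was above background in no L1 sample and was at least 4.57-fold higher in L4 (adjusted p = 0.00222).

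Genes of synapses and neuronal structure were also lower where they were called. Of 58 neuronal genes, 8 were lower and 0 higher, or 13.8% called, against 7.84% of all named genes (2.24% lower). The median was -0.93, and 3 to 12 were lower with any 1 sample left out, 3 without L4 replicate 3 or L1 replicate 10. ric-4, the SNAP-25 of synaptic release, had levels of -5.15, -4.99 and -2.52 in L4, against -0.57, -1.83, -0.64 and -0.81 in L1 (-3.19 ± 0.75, adjusted p = 0.0136). mec-7, a tubulin of touch neurons, had levels of -4.64, -5.76 and -3.67 in L4 and -3.08, -2.39, -2.43 and -0.83 in L1 (-2.46 ± 0.57, adjusted p = 0.0121). Both calls were lost without L4 replicate 3, and that of ric-4 also without L4 replicate 1 or L1 replicate 10 (adjusted p up to 0.0779). The general neuronal markers unc-119 and snb-1, a synaptobrevin, gave -0.91 (adjusted p = 0.309) and -0.57 (adjusted p = 0.335).

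Of 72 homeobox genes, many of which specify neurons and body regions, 7 were lower and 0 higher, with a median of -0.65. This was 9.72% called, against 7.84% of all named genes (2.24% lower). With any 1 sample left out, 1 to 10 were lower, 1 without L1 replicate 5. The median was -1.1 without L4 replicate 10: over 49 genes with a value in all 18 samples, the list lay at -1.29, -1.16 and -0.03 from its L1 mean in L4 replicates 1, 3 and 10. ceh-32, a head regulator of the sine oculis family, had levels of -3.69, -3.99 and -2.03 in L4, against -0.88, -0.40, -0.42 and -0.53 in L1 (-2.67 ± 0.53, adjusted p = 0.00398). The Hox genes lin-39 and mab-5 gave -1.31 ± 0.34 (adjusted p = 0.0255) and -1.93 ± 0.56 (adjusted p = 0.0459), and neither call was stable. That of lin-39 was lost without any 1 sample but L4 replicate 10 and L1 replicate 2 (adjusted p up to 0.157), and that of mab-5 without any 1 sample but L4 replicates 1 and 10 (adjusted p up to 0.235).

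Chemoreceptor genes, a large family of sensory receptors, were seldom called. Of 908 tested, 3 were higher and 4 lower (0.771% called in either direction, against 6.78% of all genes and probes). Only 293 of the 1194 on the array were above background in every L4 sample and 274 in every L1 sample, so for most members a level could not be compared in every sample. Without L4 replicate 10, 29 were lower and 5 higher, and 0 were lower without L4 replicate 1 or L1 replicate 10. srd-25 had levels of -0.23, -0.32 and 0.88 in L4, against 1.29, 2.73, 2.46 and 1.66 in L1 (-1.93 ± 0.46, adjusted p = 0.0149), a call lost without L4 replicate 1 or 3 or L1 replicate 5 or 10 (adjusted p up to 0.0806). srh-211 was 1 of the 3 higher, with levels of 3.78, 4.04 and 3.29 in L4 and 0.69, 0.21, 0.04 and 0.08 in L1, a difference of 3.48 ± 0.34 (adjusted p = 6.84e-06).

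**Figure D5:**
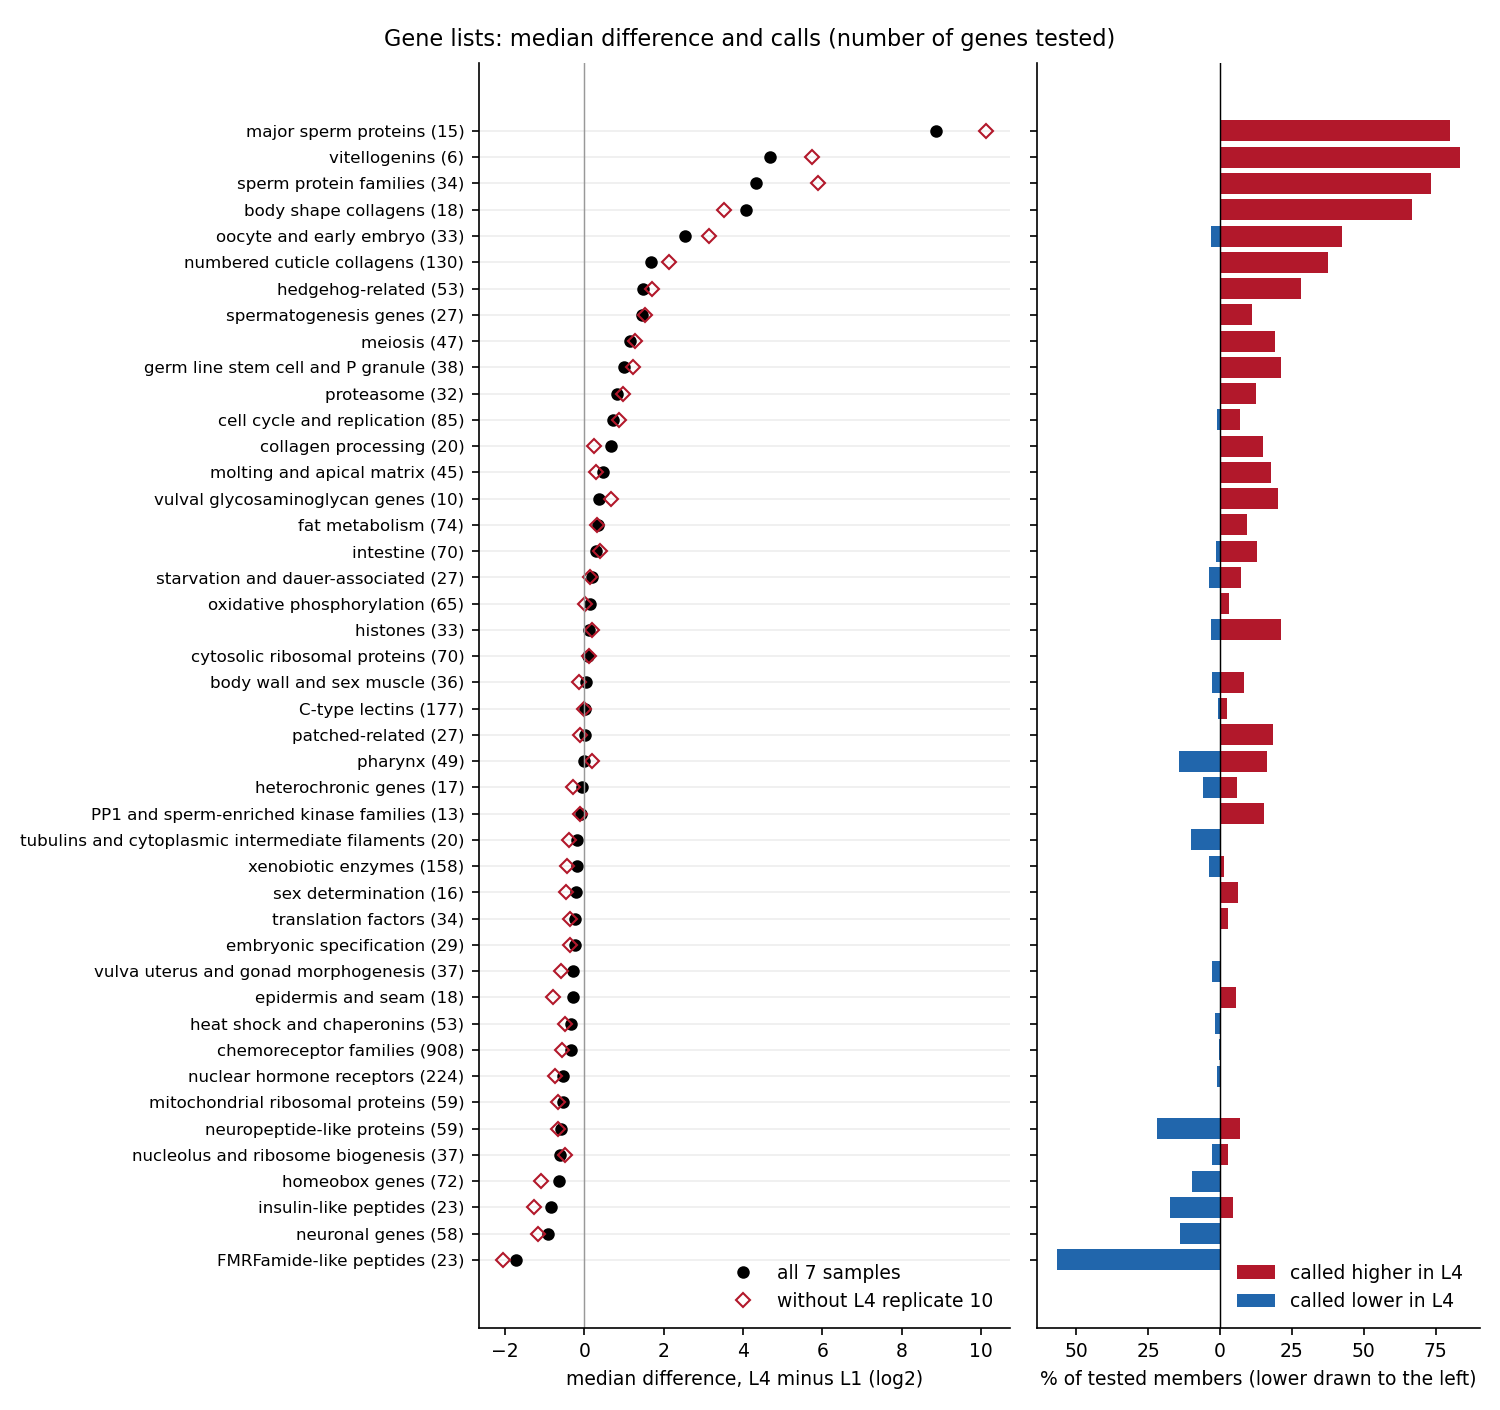
Left, median difference of each of the 44 gene lists (L4 minus L1, log2) with all 7 samples (black) and without L4 replicate 10 (open red diamonds); right, percent of the tested members called higher (red, to the right) or lower (blue, to the left) in L4 with all 7 samples; the number tested is in brackets. Major sperm proteins lie at 8.87 and FMRFamide-like peptides at -1.72, against a median of -0.12 over all genes and probes.

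The pharynx list held calls in both directions. Of 49 tested, 8 were higher and 7 lower, with a median of 0.00, and 2 to 7 were higher with any 1 sample left out, 2 without L1 replicate 5. Among the genes that fell, myo-2, the pharyngeal myosin heavy chain, had levels of -0.98, -0.64 and 0.58 in L4, against 1.93, 2.42, 2.13 and 2.07 in L1, a difference of -2.50 ± 0.36 (adjusted p = 0.000302). The troponin C gene tnc-2 had levels of -2.42, -3.11 and -0.28 in L4 and 1.35, 0.44, 1.1 and 0.80 in L1 (-2.81 ± 0.57, adjusted p = 0.00463). The organ's FoxA regulator, pha-4, had levels of -1.97, -1.74 and -0.69 in L4 and 0.33, 0.01, -0.14 and 0.00 in L1 (-1.45 ± 0.33, adjusted p = 0.0106), a call lost without L4 replicate 1 (adjusted p = 0.0577). In all 3, which were chosen among called genes, every L4 value lay below every L1 value. The same held for 9.88% of the named genes with all 7 values. Gland genes went both ways, since phat-6 fell by 2.63 on the log2 scale (SE 0.44, adjusted p = 0.00118) and phat-4 rose by 3.15 ± 0.54 (adjusted p = 0.00129). The stage means of phat-4 were 0.81, -0.81, 1.63, 2.90 and 2.41 in Egg, L1, L2, L3 and L4.

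Of 36 genes of body wall and sex muscle, 3 were higher and 1 lower, with a median of 0.04. This was 11.1% called, against 7.84% of all named genes. The myosins unc-54 and myo-3 gave -0.83 (adjusted p = 0.453) and -1.55 (adjusted p = 0.0697), and without L4 replicate 10 both were called lower, at -1.86 (adjusted p = 0.0258) and -2.25 (adjusted p = 0.00812). The actin gene act-2, whose probe may read near-identical actin transcripts, had levels of 5.08, 4.41 and 3.84 in L4, against 2.60, 2.48, 2.40 and 2.96 in L1, a difference of 1.80 ± 0.29 (adjusted p = 0.000739). The calponin-like gene cpn-1 rose by 2.19 ± 0.43 (adjusted p = 0.00384), and the potassium channel gene twk-18 fell by 2.96 on the log2 scale (SE 0.69, adjusted p = 0.0127), a call lost without L4 replicate 1 or 3 or L1 replicate 5 or 10 (adjusted p up to 0.0819).

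Intestinal genes gave a mixed picture, with 9 of 70 higher and 1 lower, or 14.3% called, against 7.84% of all named genes. The median was 0.30, and 3 to 7 were higher with any 1 sample left out, 3 without L4 replicate 3 or L1 replicate 10. spp-13, a saposin-like protein, had levels of 0.24, -0.48 and -0.53 in L4, against -7.34, -5.43, -4.91 and -7.47 in L1, a difference of 5.89 ± 0.66 (adjusted p = 2.54e-05). Its stage means were -1.05, -6.29, -0.82, -0.21 and -0.26 in Egg, L1, L2, L3 and L4, so L1 alone was low. The cathepsin gene cpz-1 rose by 4.37 ± 0.77 (adjusted p = 0.0016). ges-1, an esterase of the gut, rose by 1.68 ± 0.44 (adjusted p = 0.0254), a call lost on leaving out any 1 sample but L4 replicate 10 and L1 replicate 2 (adjusted p up to 0.144), and elt-2, the main gut regulator, gave -0.09 (adjusted p = 0.953). The gut actin gene act-5 gave -0.12 ± 0.37 (adjusted p = 0.899).

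In fat metabolism 7 of 74 genes were higher and 0 lower, with a median of 0.33. This was 9.46% called, against 7.84% of all named genes (5.6% higher). acdh-8, an acyl-CoA dehydrogenase, had levels of 0.50, -0.17 and -1.69 in L4, against -7.98, -5.43, -5.40 and -5.25 in L1, a difference of 5.40 ± 0.66 (adjusted p = 4.86e-05). The enoyl-CoA hydratase gene ech-6 had levels of 2.12, 2.42 and 2.72 in L4 and -0.02, 0.28, -0.37 and 0.01 in L1 (2.40 ± 0.35, adjusted p = 0.000325). The desaturases fat-2 and fat-6 gave 0.00 ± 0.59 (adjusted p = 0.998) and -0.70 ± 0.84 (adjusted p = 0.703).

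Among 158 genes of detoxifying enzymes, 6 were lower and 2 higher, or 5.06% called, against 7.84% of all named genes. Their median was -0.20, and 3 to 14 were lower with any 1 sample left out, 14 without L4 replicate 10 and 3 without L4 replicate 1 or L1 replicate 5 or 10. gst-24, a glutathione transferase, had levels of -4.96, -4.04 and -2.2 in L4, against 1.62, 0.80, 1.28 and 0.29 in L1, a difference of -4.70 ± 0.74 (adjusted p = 0.000566). Its stage means were -6.59, 1.00, -1.71, -2.28 and -3.73 in Egg, L1, L2, L3 and L4, so L1 stood above every other stage. ugt-45, a UDP-glucuronosyltransferase, fell by 3.29 on the log2 scale (SE 0.61, adjusted p = 0.00266). Of genes known to be raised in starved or dauer larvae, 2 of 27 were higher and 1 lower, or 11.1% called, against 7.84% of all named genes. On leaving out any 1 sample but L1 replicate 2, 1 was higher. The lower one was scl-3, a secreted CAP-family protein, with levels of -4.73, -2.73 and -1.47 in L4 and 0.80, 0.69, 0.78 and 0.78 in L1 (-3.67 ± 0.62, adjusted p = 0.00105).

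Of 70 cytosolic ribosomal protein genes, 0 were called by limma (3 at an unadjusted p under 0.05), with a median of 0.09, and 1 was higher without L4 replicate 10. The large-subunit gene rplp-0 had levels of 4.12, 4.17 and 5.04 in L4, against 4.64, 3.73, 4.12 and 5.07 in L1 (adjusted p = 0.882). Of 59 mitochondrial ribosomal protein genes, 0 were called by limma (3 at an unadjusted p under 0.05), and 51 of them had a difference below 0 (median -0.55). The median was -0.83 to -0.23 with any 1 sample left out, and 1 gene was lower without L4 replicate 10. Over the 53 with a value in all 18 samples, the list lay at -1.05, 0.07 and -0.39 from its L1 mean in L4 replicates 1, 3 and 10, so replicate 3 was not below L1. In the proteasome 4 of 32 subunits were higher and 0 lower, or 12.5% called, against 7.84% of all named genes (5.6% higher). A difference above 0 was found in 30 subunits. With any 1 sample left out 1 to 9 were called, 1 without L4 replicate 1 and 9 without L4 replicate 10. rpt-1, an ATPase of the proteasome cap, had levels of 1.79, 1.80 and 0.80 in L4 and -0.73, 0.19, 0.27 and 0.00 in L1 (1.45 ± 0.30, adjusted p = 0.00587). In oxidative phosphorylation 2 of 65 were higher and 0 lower, or 3.08% called, against 7.84% of all named genes. Without L4 replicate 3 or L1 replicate 5, 10 or 11, 1 was higher. Of the 2, ucr-2.3, a relative of a complex III core subunit, had levels of -0.34, -0.67 and -2.04 in L4 and -7.34, -6.44, -5.12 and -5.40 in L1 (4.93 ± 0.57, adjusted p = 3.31e-05). Of the paired ATP synthase subunits, asb-1, known from the germ line, gave 1.55 ± 0.50 (adjusted p = 0.0725) and asb-2 gave -0.24 ± 0.40 (adjusted p = 0.799).

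Genes that shape the vulva and gonad, processes of late larvae, gave 0 higher and 1 lower of 37 tested, with a median of -0.29, or -0.58 without L4 replicate 10. This was 2.7% called, against 7.84% of all named genes. The 1 call was lost on leaving out any 1 sample but L4 replicate 10 and L1 replicate 2. Over 29 genes with a value in all 18 samples, the list lay at -0.53, -0.54 and 0.20 from its L1 mean in L4 replicates 1, 3 and 10. The fibroblast growth factor gene egl-17 had levels of 2.47, 2.67 and 3.59 in L4 and 2.90, 2.55, 3.82 and 3.50 in L1 (adjusted p = 0.79). In the glycosaminoglycan pathway that opens the vulval space, 2 of 10 were higher, or 20% called, against 7.84% of all named genes. Of the 2, sqv-4, the UDP-glucose dehydrogenase, lay at -0.16, 1.36 and -0.81 in L4 and -3.12, -3.11, -2.83 and -3.15 in L1 (3.09 ± 0.47, adjusted p = 0.000451). The other was cpg-9, a chondroitin proteoglycan, at 2.65 ± 0.79 (adjusted p = 0.0498), a call lost on leaving out any 1 sample but L4 replicate 1 (adjusted p up to 0.211).

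Outside the lists, the most extreme genes with a value in all 7 samples and no overlap included little-studied ones. F46F2.3, whose role is not annotated in the files, had levels of -1.2, -0.13 and 2.69 in L4, against 4.46, 5.03, 4.6 and 4.96 in L1, a difference of -4.27 ± 0.71 (adjusted p = 0.000953). EGAP4.1 had levels of -5.62, -4.6 and -3.55 in L4 and 0.36, 0.41, 0.39 and 0.36 in L1, a difference of -4.92 ± 0.73 (adjusted p = 0.000381). L1 values of EGAP4.1 agreed closely with each other, and its stage means were -3.97, 0.38, -0.28, -4.52 and -4.59 in Egg, L1, L2, L3 and L4. The ABC transporter gene mrp-2 and the Sox-family gene sox-3 fell by 4.19 (SE 0.80, adjusted p = 0.00313) and 3.93 (SE 0.77, adjusted p = 0.00354) on the log2 scale. At the other end, nspa-9, of a nematode-specific peptide family, had levels of 4.32, 3.97 and -0.04 in L4 and -5.69, -5.85, -5.55 and -5.73 in L1, a difference of 8.43 ± 1.2 (adjusted p = 0.000257).

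Genes above background at 1 stage alone were mostly L4 genes. 359 named genes were above background in every L4 sample and in no L1 sample, whereas 21 were above background in every L1 sample and in no L4 sample. Above background in every sample of the stage were 9866 named genes in L4 and 8395 in L1. The 2 sides are not alike, because L4 had 3 samples and L1 had 4. L1 replicates 2 and 11 also had fewer spots above background than any L4 sample, at 54.1% and 58.7%, against 63.9% to 71.4% in L4. L1 replicates 5 and 10, both at 68.4%, lay within the L4 range. After msp-50, the highest bounds were those of msp-56 (at least 761-fold higher in L4) and msp-63 (at least 476-fold higher). E01G4.6 was at least 232-fold higher in L4. rol-1, a gene known for a rolling mutant, was at least 161-fold higher and was not tested because only 1 L1 sample had a positive value. lon-3, a collagen of body length, was likewise not tested and was at least 81.3-fold higher in L4. On the L1 side, the neuropeptide receptor gene npr-36 was not above background in L4 and was at least 5.2-fold lower there (adjusted p = 0.00129). Some fitted differences given above rest in part on values not above background, and their size is uncertain to that extent. Of the 4 L1 values, 1 was above background for lep-5, nspa-9, syp-3, ucr-2.3 and wrt-6. For acdh-8, col-146, fog-2, rme-2 and spp-13, 2 were, and for acn-1, grl-7, htp-1, msp-76, spn-4, sqt-1, vit-6 and wago-1, 3 were. Of the 3 L4 values, 2 were above background for EGAP4.1, cav-1, flp-17 and idpp-16, and 1 was for mrp-2 and sox-3.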

How the data were processed

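The data were 36 dye channels of 2-colour spotted arrays, and the 18 total RNA channels were fitted. The intensity values were used as deposited: per the values they are linear, background-subtracted and scaled to a column mean near 1, and the scanner and scaling are not given in the sources used here. Per the labels' protocols, RNA was amplified once and labelled with Cy3 or Cy5. Values of 0 or less (7.86% to 16.5% of spots in the 7 samples) were left missing, and the others were taken to log2 and quantile normalized over the 36 columns. Probes of a gene were averaged. A feature was tested with a value in at least 2 L4 and 2 L1 samples, with limma 3.58.1 in R 4.3.3 (lmFit and eBayes with trend, stage and dye as terms, two-sided, contrast L4 minus L1), and p-values were adjusted by Benjamini-Hochberg over all 19776 genes and probes. Every adjusted p in the text comes from this limma fit. The dye-adjusted difference need not equal the difference of the means. Between 63.9% and 71.4% of spots were above background in L4, and 54.1% to 68.4% in L1; the number of arrays limits the precision. A gene above background in no sample of a stage is given as a bound: the mean of the bright stage over that of the dim stage, with each dim value raised to the lowest signal above background. Genes named are the 15 highest and 15 lowest called with all 7 values and no overlap, key members of each list, the 3 highest and 3 lowest called members of each list, and the 15 highest bounds each way; the male markers and the major sperm protein genes that were not called are named besides. A selection of these is given. The members and lists were chosen with earlier results of these data known. The script was tested on simulated data. Alternatives changed the scaling, missing values, filters, samples, dye and title terms, weights, variance model and probe choice, and left out each replicate.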

Additional observations from a re-analysis of the deposited data

Results flagged for a closer look

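Of the genes named here with values in all 4 L1 samples, 8 (6.45% of those tested) had 1 L1 sample whose gap to the others exceeded Dixon's limit. Chance flags about 1 group in 20, which is close to this share. L1 replicate 2 was the outlying sample in 4 and L1 replicate 11 in 3. In replicate 2 the levels were -7.98 for acdh-8 (other L1 samples -5.43 to -5.25), -2.77 for his-64 (others -1.61 to -1.39), 2.64 for lin-39 (others 3.13 to 3.15) and -0.5 for oma-1 (others 0.38 to 0.52). In replicate 11 they were -5.11 for elt-2 (others -3.72 to -3.49), -2.06 for ugt-45 (others -0.83 to -0.6) and -3.19 for vit-4 (others -4.73 to -4.66). In replicate 10, sqv-4 lay at -2.83 (others -3.15 to -3.11). Groups of 3, such as L4, were not tested in this way.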

How the results depend on the processing

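With all 7 samples 926 genes and probes were higher in L4 and 414 lower. Leaving out 1 sample at a time gave 569 to 1157 higher and 177 to 959 lower, both lowest without L4 replicate 3 and highest without L4 replicate 10. Centring columns on their medians left 235 lower, and an offset of 0.1 before log2 gave 711 lower. Fitting only the 7 samples gave 611 higher and 232 lower, and array weights gave 1406 and 1234. Samples spelled tot alone gave 350 higher and 54 lower, and samples spelled Tot alone 77 and 4; the first set has 1 L1 sample and the second 1 L4 sample, assumed to vary like the other groups. The cause of these shifts was not tested, beyond the fewer samples in some fits. Other settings stayed within 1.5 times of both counts. No paired analysis was possible because the L4 and L1 titles share only the replicate number 10; with the replicate number as a random block over all 18 samples (consensus correlation 0.096), 959 were higher and 448 lower. Of the 93 named genes called, 15 were called under every setting in which they had enough values to be tested. There were 23 settings, and some genes were tested in fewer of them, such as E01G4.6 in 19 and bli-2 in 21. Of the 93, 0 turned sign in any setting, and 23 lost the call with at least 1 sample left out. Of the 46 not called, 10 were called under some setting. Of 3036 counts and medians of gene lists computed, 505 moved beyond the limits used, and of the medians of lists whose median was over 1 in size, 0 of 230 turned sign, against 43 of 782 for the other lists. Quantile normalization sets all columns to 1 distribution, so a change in total RNA per animal cannot be read, and genes near background have only bounds.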
